A study of Mus musculus with 15 samples.

Results

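The genes described here are 10 genes of germ cell identity and pluripotency in mouse foetal gonocytes, taken by name as *Dazl*, *Pou5f1*, *Dppa3*, *Nanos2*, *Nanos3*, *Dnd1*, *Kit*, *Prdm1*, *Sall4* and *Lin28a*. They are 10 of 54838 gene identifiers counted by RNA-seq, and 9 of them were among the 16311 genes with enough reads to be tested. Gonocytes were sorted from foetal testes at E16.5 (embryonic day) as tdTomato-positive cells, the reporter being 1 *Miwi2* allele carried by every animal, so that both groups had the same reporter. The control group was *Tex15*+/- (3 libraries) and the knockout group was *Tex15*-/- (3 libraries), both of the mixed strain B6CBAF1/Crl; C57BL/6N, and the controls therefore also carried 1 mutant *Tex15* allele. The mutant allele carries an insertion in exon 5 with stop codons. Small RNA of whole, unsorted E16.5 testes was used to look for short RNAs from the same genes. These testes came from *Tex15*+/- and *Tex15*-/- animals of the same strain (3 libraries each, 6 testes pooled per library), with no reporter stated.

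Gonocytes are the male germ cells of the foetal testis. They descend from primordial germ cells, which share part of the pluripotency programme of the early embryo, and they leave that programme as they enter mitotic arrest and take on the male fate. DAZL, DND1, NANOS2 and NANOS3 are RNA-binding proteins that control the stability or translation of germ cell transcripts, while POU5F1, SALL4, LIN28A, DPPA3 and PRDM1 are known from pluripotent cells and primordial germ cells, and KIT is a receptor that primordial germ cells and differentiating spermatogonia need. *Tex15* encodes a nuclear protein of the piRNA pathway, in which small RNAs bound to PIWI proteins direct the silencing of transposable elements.

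*Tex15* itself was measured first, as a check of the labels. It had 1509, 1667 and 1664 CPM (counts scaled to a common total of reads on genes, with TMM factors) in the control libraries and 468.5, 230.2 and 249.3 CPM in the *Tex15*-/- libraries, a log2 fold change of -2.35 ± 0.23 (SE, edgeR quasi-likelihood test, adjusted p = 0.0112, and 2.7e-07 with DESeq2). Reads on genes ranged from 4893265 to 5697020 per library. The germ cell markers *Ddx4*, *Mael*, *Piwil2*, *Piwil4* and *Dnmt3l* summed to 2379 to 2654 CPM, with none at 0 in any library. Markers of somatic testis cells did not have the same level in all libraries. The 45 somatic markers summed to 220.5 to 285.7 CPM in the controls, to 219.8 CPM in *Tex15*-/- replicate 1, to 3039 CPM in replicate 2 and to 888.1 CPM in replicate 3. In replicates 2 and 3 none of the 45 was at 0, against 4 or 5 in each other library. Over all 6 libraries, replicates 2 and 3 included, the genes with the most CPM of the Sertoli, Leydig, interstitial, endothelial and blood lists were *Gata4*, *Cyp17a1*, *Col3a1*, *Cdh5* and *Alas2*. *Col3a1*, a collagen of mesenchymal cells, had 12.4 to 17.5 CPM in the controls and 10.02, 599.8 and 126.2 CPM in the *Tex15*-/- libraries, and *Cyp17a1*, a steroidogenic enzyme of Leydig cells, had 2.40 to 16.2 CPM and then 11.2, 243.5 and 80.1 CPM. *Gata4* had 5.01 to 7.15 CPM in the controls and 6.41, 41.2 and 20.4 CPM in the *Tex15*-/- libraries, *Cdh5* 19.9 to 23.1 and 16.03, 88.7 and 16.8 CPM, and *Alas2* 14.1 to 20.7 and 13.4, 15.4 and 16.8 CPM. The blood list as a whole summed to 28.2 to 34.3 CPM in the controls and to 28.1, 51.6 and 64.7 CPM in the *Tex15*-/- libraries, unlike *Alas2*. The share of uniquely aligned reads outside annotated exons was also lower in replicates 2 and 3, at 21.2% and 28.6%, than in the other 4 libraries, where it was 34.9% to 39.8%. *Actb* had 591.9 to 679.4 CPM in the controls and 615.2, 1015 and 799.0 CPM in the *Tex15*-/- libraries. The difference of each of the 9 genes tested, and the median of each list, is therefore also given for *Tex15*-/- replicate 1 alone. In that fit the spread comes from the 3 controls, and its standard errors hold nothing of the variation among knockouts. Replicate 1 also had the most *Tex15* RNA of the knockout libraries (468.5 CPM, against 230.2 and 249.3 CPM). A smaller number of cells of a type and less RNA per cell cannot be told apart in such libraries.

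**Figure D1:**
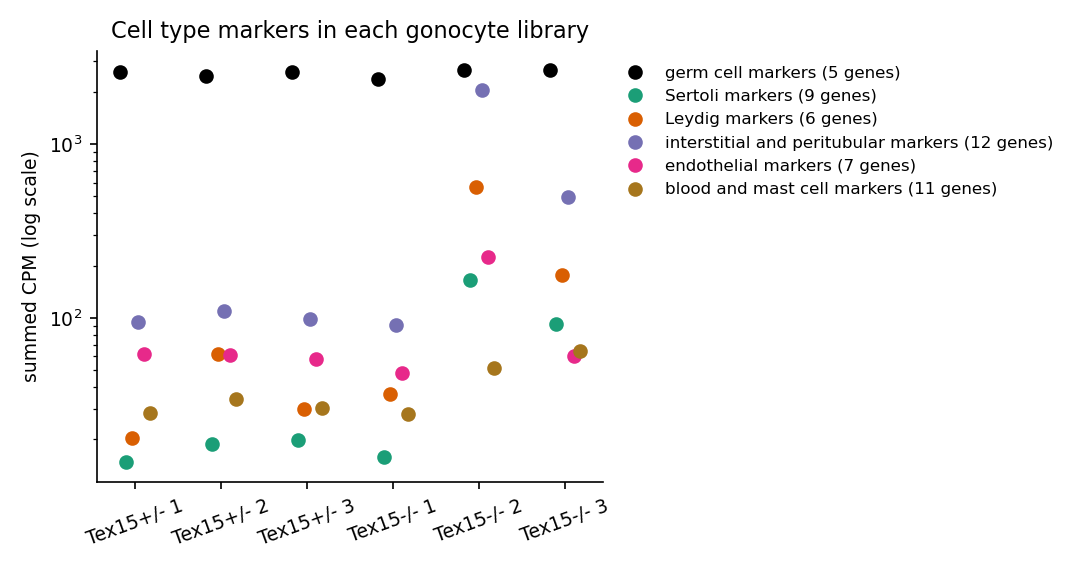
Summed CPM (log scale) of the markers of germ cells and of 5 groups of somatic testis cells in each of the 6 gonocyte libraries, 1 point per list and library. The germ cell markers stay between 2379 and 2654 CPM, while the interstitial and peritubular markers are at 90.98 to 109.3 CPM in 4 libraries, 2034 CPM in *Tex15*-/- replicate 2 and 493.8 CPM in *Tex15*-/- replicate 3.

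Levels were compared between genes as CPM per kb of exon. In control gonocytes 5 of the 10 genes lay above 95% of the genes tested, and 5 lay below that level. *Dazl* was highest, at 71.8 ± 4.80 CPM per kb (SD, n = 3), above 97.7% of the genes tested. *Dppa3* followed at 59.9 ± 10.4 CPM per kb, and its range over the control libraries overlapped that of *Dazl*. *Sall4* (44.8 ± 1.16), *Pou5f1* (44.65 ± 3.400) and *Dnd1* (43.2 ± 2.79 CPM per kb) came next and overlapped each other. They lay below every *Dppa3* control value, of which the lowest was 48.56 CPM per kb. Over the exon length shared with no other gene, *Pou5f1* had 51.98, *Sall4* 49.45 and *Dnd1* 45.85 CPM per kb in controls. *Pou5f1* and *Sall4* were then no longer below every *Dppa3* control value. All 5 were above 95.7% or more of the genes tested. A gap of 2.84-fold separated *Dnd1* from *Lin28a*, at 15.2 ± 2.44 CPM per kb. *Kit* (7.90 ± 1.14 CPM per kb) lay below *Lin28a*, and *Prdm1* (4.12 ± 0.724 CPM per kb) below *Kit*, in each case without overlap. *Nanos3* (3.87 ± 0.673 CPM per kb) overlapped *Prdm1*, and both were near the median of the genes tested, 3.38 CPM per kb. *Nanos2* was last at 0.677 ± 0.278 CPM per kb, 5.72-fold under *Nanos3*, or 2.92-fold over the exon length it shares with no other gene, and with 2 to 11 reads per library it did not pass the filter. The order of these levels says nothing of the proteins, and it depends on the lengths used: with the longest transcript as length, 41 of the 45 pairs of genes kept their order.

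**Figure D2:**
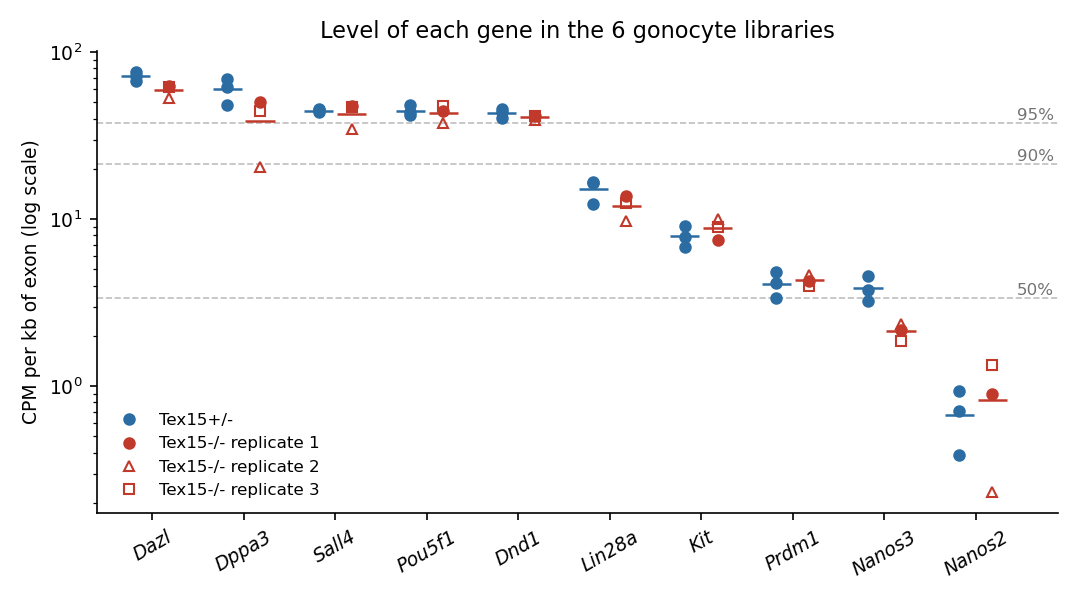
Level of each gene in CPM per kb of exon (log scale), with the 3 *Tex15*+/- libraries in blue and the 3 *Tex15*-/- libraries in red, a short line at each mean, and dashed lines at the level below which 50%, 90% and 95% of the genes tested lie in controls. *Dazl*, *Dppa3*, *Sall4*, *Pou5f1* and *Dnd1* are above the 95% line (37.7 CPM per kb) in every control library, and *Tex15*-/- replicate 2 (open triangle) is the lowest point for 7 of the 10 genes.

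In *Tex15*-/- gonocytes none of the 9 genes tested passed an adjusted p of 0.01 (edgeR quasi-likelihood test). Neither did any of all genes tested (0%), *Tex15* itself included (adjusted p = 0.0112 in that test). DESeq2 called 14 genes in all and none of these 9, of which *Nanos3* was given no adjusted p. At an unadjusted p under 0.05, 2 of the 9 were lower (*Dazl* and *Dppa3*) and 0 were higher, where 3.15% of all genes tested were lower and 6.05% higher. Of the 9, 7 had a log2 fold change below 0, against 50% of all genes, and their median was -0.09, against 0.00 over all genes. In 2 of the 10 genes (*Dazl* and *Nanos3*) every *Tex15*-/- library lay below every control, which held for 6.68% of the genes tested. The reverse, every *Tex15*-/- library above every control, held for 0 of the 10 and for 6.51% of the genes tested. With groups of this size the smallest p that a two-sided exact permutation test can return is 0.1.

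The libraries of the *Tex15*-/- group did not contribute alike. Replicate 1 lay below every control for 2 of the 10 genes (24.1% of genes tested) and above every control for 1 (23.1%). Replicate 2, the library with the most somatic marker reads, lay below every control for 8 of the 10 (36.5% of genes tested) and above for 1 (35.3%). Replicate 3 was below for 3 (30.6%) and above for 2 (30.3%). The sum of the 5 germ cell markers was 2652 CPM in replicate 2 and 2459 to 2605 CPM in the controls. Single germ cell genes differed in both directions. *Mael* (728.0 against 640.1 to 675.9 CPM), *Piwil2* (748.4 against 693.2 to 736.5) and *Dnmt3l* (320.9 against 236.6 to 279.1) lay above every control there. *Ddx4* lay within the control range (686.6 against 682.4 to 755.1 CPM), and *Piwil4* below it (167.7 against 178.5 to 196.0 CPM). *Tex101* of the foetal germ cell list, named after its values were seen, had 50.2 against 81.4 to 85.2 CPM. The part of the somatic RNA in the position of replicate 2 was not tested.

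**Figure D3:**
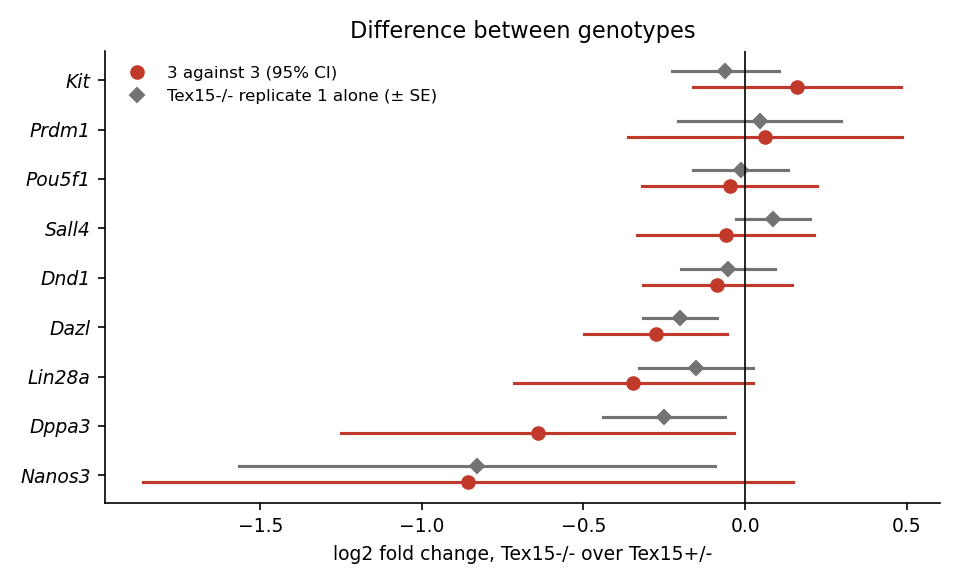
Log2 fold change of *Tex15*-/- over *Tex15*+/- for the 9 genes tested, with all 3 libraries per group and the 95% confidence interval (red), and with *Tex15*-/- replicate 1 as the only knockout library and its standard error (grey). The red interval lies below 0 for *Dazl* and *Dppa3*, and for *Dppa3* the value moves from -0.64 to -0.25 with replicate 1 alone.

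Among the RNA-binding proteins, *Dazl* (ENSMUSG00000010592, chr17:50279395-50293636, minus strand, GRCm38) encodes a translational regulator that licenses germ cells for sexual differentiation. It had 291.7, 275.7 and 255.1 CPM in the controls and 238.3, 204.4 and 236.3 CPM in the *Tex15*-/- libraries. The highest knockout library was under the lowest control, with group means of 274.2 ± 18.3 and 226.3 ± 19.0 CPM (SD, n = 3, two-sided exact permutation p = 0.1). The log2 fold change was -0.28 (95% confidence interval -0.50 to -0.06, edgeR adjusted p = 0.471), and -0.20 ± 0.12 (SE) with replicate 1 alone. No 72-bp stretch of its exons occurs elsewhere in the genome and no other gene overlaps it, so neither kind of shared read touches its count.

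*Nanos3* (ENSMUSG00000056155, chr8:84173731-84185217, minus strand) encodes a zinc-finger protein that protects migrating primordial germ cells. It had 4.24, 3.01 and 3.48 CPM in the controls and 2.004, 2.18 and 1.71 CPM in the *Tex15*-/- libraries, from 15 to 23 and 9 to 12 reads. The groups did not overlap, and replicate 1, with 10 reads, lay below the controls like replicates 2 and 3. The part of the somatic RNA in this difference was not tested. The log2 fold change was -0.86 (95% confidence interval -1.86 to 0.15, edgeR adjusted p = 0.587), and -0.83 ± 0.74 (SE) with replicate 1 alone. With so few reads the interval included no change and a fall of over 1 on the log2 scale.

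*Dnd1* (ENSMUSG00000044595, chromosome 18, minus strand) encodes a protein that works with the NANOS proteins and the CCR4-NOT deadenylase complex. Its level was 109.9, 105.9 and 96.8 CPM in the controls and 100.4, 94.7 and 99.5 CPM in the *Tex15*-/- libraries. The groups overlapped, and the log2 fold change was -0.09 (95% confidence interval -0.32 to 0.15, edgeR adjusted p = 0.797), and -0.05 ± 0.15 (SE) with replicate 1 alone. *Dnd1* thus had the narrowest spread of the 10 genes in the knockout libraries relative to its mean, 98.2 ± 3.09 CPM (SD, n = 3). A stretch of 140 bp at one end, of 2412 bp of exon, is shared with *Wdr55* on the other strand.

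*Nanos2* (ENSMUSG00000051965, chr7:18987400-18988962, plus strand) encodes the protein that sets the male fate in foetal germ cells and later maintains spermatogonial stem cells. It had 6, 3 and 8 reads in the controls and 7, 2 and 11 in the *Tex15*-/- libraries (1.11, 0.602 and 1.47 CPM, then 1.40, 0.363 and 2.09 CPM). The values of both groups were spread over one another, and no fold change was fitted after the filter. Its single exon is 1563 bp long, and the antisense gene *Gm45058* (chr7:18987559-18988324, minus strand) lies wholly within it. It shares 766 bp (49.0%) with *Nanos2*, including all of the coding sequence (chr7:18987605-18988012, without the stop codon). *Gm45058* had 0 reads in all 6 libraries. In the whole table, 42 genes lie inside an exon of a well-covered gene on the other strand (over 2000 reads in the 6 libraries), and all 42 had 0 reads, as happens when reads are counted without regard to strand and those in shared sequence are set aside. The *Nanos2* count would then come from about the 797 bp it does not share, over which its control level would be 1.33 CPM per kb. Such a count misses reads in the shared part, and it can include antisense RNA of the unshared part. It is therefore neither a lower nor an upper limit.

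Among the genes known from pluripotent cells, *Pou5f1* (ENSMUSG00000024406, chr17:35506018-35510772, plus strand) encodes OCT4, a core factor of pluripotency that germ cells keep until late in foetal life. It had 94.0, 98.3 and 108.9 CPM in the controls and 99.4, 84.3 and 107.7 CPM in the *Tex15*-/- libraries. Only replicate 2 left the control range, and the log2 fold change was -0.05 (95% confidence interval -0.32 to 0.22, edgeR adjusted p = 0.909). With replicate 1 alone it was -0.01 ± 0.15 (SE). Of its 72-bp exon stretches, 17.3% had first and last 31 bp that each occur elsewhere in the genome. This share is an upper limit for repeats of the whole stretch. As 317 bp of exon are also shared with the antisense gene *Gm19553*, the *Pou5f1* count can miss reads in all libraries.

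*Sall4* (ENSMUSG00000027547, chr2:168748332-168767943, minus strand) encodes a zinc-finger factor that recruits the NuRD complex and is needed by undifferentiated germ cells. Its level was 254.0, 241.2 and 248.0 CPM in the controls and 262.7, 191.1 and 259.2 CPM in the *Tex15*-/- libraries. Replicates 1 and 3 were above every control and replicate 2 below, which gave a mean of 237.7 ± 40.3 CPM against 247.7 ± 6.41 CPM (SD, n = 3). The log2 fold change was -0.06 (95% confidence interval -0.33 to 0.21, edgeR adjusted p = 0.885), and it was above 0 without replicate 2, at 0.08, and with replicate 1 alone, at 0.09 ± 0.11 (SE). Of the 5536 bp of *Sall4* exon, 526 bp are shared with *Gm14261* on the other strand.

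*Lin28a* (ENSMUSG00000050966, chr4:134003330-134018841, minus strand) encodes an RNA-binding protein that blocks the maturation of let-7 microRNAs. It had 65.6, 49.5 and 67.1 CPM in the controls and 54.7, 39.1 and 49.9 CPM in the *Tex15*-/- libraries. The groups overlapped through the low control replicate 2. The log2 fold change was -0.35 (95% confidence interval -0.71 to 0.02, edgeR adjusted p = 0.567), and -0.15 ± 0.18 (SE) with replicate 1 alone. Of the 72-bp exon stretches of *Lin28a*, 8.8% had first and last 31 bp that each occur elsewhere in the genome. Of its 3996 bp of exon, 234 bp are shared with *Gm13061* on the other strand.

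*Dppa3* (ENSMUSG00000046323, chr6:122626410-122630272, plus strand) encodes STELLA, a protein that keeps the methylation machinery, through UHRF1 and DNMT1, from acting on the maternal genome. Of the 9 genes tested it had the widest spread in the knockout group relative to its mean, with 55.3, 43.3 and 61.6 CPM in the controls and 44.9, 18.4 and 39.8 CPM in the *Tex15*-/- libraries. Replicate 1 was within the control range, replicate 3 just under it, and replicate 2 far below both groups' other libraries. The log2 fold change was -0.64 (95% confidence interval -1.25 to -0.03, edgeR adjusted p = 0.521), and -0.25 ± 0.19 (SE) with replicate 1 alone. The gene has pseudogene copies, and 23.1% of its 72-bp exon stretches had first and last 31 bp that each occur elsewhere in the genome. This share, an upper limit for repeats of the whole stretch, was the highest among the 10, so the *Dppa3* count is uncertain.

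*Prdm1* (ENSMUSG00000038151, chr10:44437177-44528501, minus strand) encodes BLIMP1, the repressor that specifies primordial germ cells. It had 18.8, 26.9 and 23.3 CPM in the controls and 23.7, 26.0 and 22.3 CPM in the *Tex15*-/- libraries, all of them within the control range. It was the 1 gene of the 10 of which no knockout library left that range, with a log2 fold change of 0.06 (95% confidence interval -0.36 to 0.49, edgeR adjusted p = 0.926), and 0.05 ± 0.25 (SE) with replicate 1 alone.

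*Kit* (ENSMUSG00000005672, chr5:75574916-75656722, plus strand) had 69.3, 81.0 and 60.8 CPM in the controls and 67.3, 88.9 and 79.7 CPM in the *Tex15*-/- libraries. Replicate 2 was above the controls and the other two within their range. The log2 fold change was 0.16 (95% confidence interval -0.16 to 0.48, edgeR adjusted p = 0.729), and -0.06 ± 0.17 (SE) with replicate 1 alone. *Kit* is also expressed by Leydig and mast cells, and the part of such cells in its level was not tested. Its ligand gene *Kitl*, which Sertoli cells express, had 8, 24 and 15 reads in the controls and 8, 113 and 59 in the *Tex15*-/- libraries, and so moved with the somatic markers (log2 fold change 1.89 ± 0.72, SE, edgeR adjusted p = 0.478).

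The partners and pathways of these genes were followed through 10 lists with 134 entries, of which 120 could be tested. None passed an adjusted p of 0.01 in edgeR (0% of all genes did) or, where it gave an adjusted p, in DESeq2, while without *Tex15*-/- replicate 1 edgeR called 2 of 122 tested, *Kitl* and *Pik3r1*, both higher (2.21% of all genes were called in that fit). At an unadjusted p under 0.05, 7 were higher (6.05% of all genes tested) and 4 lower (3.15%). The 11 are named here after their values were seen. *Klf4*, *Fgfr1*, *Kitl*, *Pik3r1*, *Src*, *Mta1* and *Rbbp4* were the 7 higher, and *Sycp3*, *Fgf9*, *Sos1* and *Tut7* the 4 lower, with adjusted p-values (edgeR) of 0.46 or more. Somatic markers were tested in the same fit. Of the interstitial and peritubular list 10 genes were tested, all 10 with a log2 fold change above 0 and a median of 3.0, and with replicate 1 alone the median of that list was -0.19.

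In the pluripotency network 18 of 23 genes were tested, 9 above 0 and 9 below, with a median log2 fold change of -0.01 (-0.05 with replicate 1 alone). The highest levels per kb in controls were those of *Dppa4*, a chromatin-associated factor of pluripotent cells, at 216.3 ± 7.997 CPM per kb (SD, n = 3), and *Utf1*, another such factor, at 102.7 ± 4.29 CPM per kb. Their log2 fold changes were -0.11 ± 0.10 and 0.04 ± 0.10 (SE). *Nanog* and *Sox2*, which form the core pluripotency circuit with *Pou5f1*, were low: *Nanog* had 28, 14 and 16 reads in the controls and 12, 10 and 15 in the knockout libraries, and *Sox2* 41, 7 and 12 and then 15, 2 and 20 reads. Both were named after their values were seen.

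Of the foetal germ cell genes 14 of 15 were tested, with a median of -0.06 (-0.15 with replicate 1 alone), and the highest were *Mael* (381.4 ± 10.8 CPM per kb) and *Ddx4* (241.0 ± 12.8 CPM per kb, SD, n = 3). Their log2 fold changes were 0.03 ± 0.10 and -0.06 ± 0.09 (SE). Of the spermatogonial stem cell genes 15 of 16 were tested, with a median of -0.01 (0.19 with replicate 1 alone), and the highest, *Foxo1* and *Cd9*, had only 7.34 ± 0.540 and 6.80 ± 1.34 CPM per kb. Among the retinoic acid and differentiation genes 10 of 11 were tested, with a median of 0.04 (-0.04 with replicate 1 alone), and *Sohlh1*, a factor of spermatogonial differentiation, was highest at 52.0 ± 7.85 CPM per kb, followed by the retinoic acid binding protein gene *Crabp1* at 20.5 ± 2.20 CPM per kb. *Foxo1* and *Cd9* had log2 fold changes of -0.28 ± 0.15 and -0.03 ± 0.28 (SE), and *Sohlh1* and *Crabp1* of 0.05 ± 0.14 and 0.11 ± 0.21 (SE).

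The signalling lists had medians of opposite sign, both nearer 0 with replicate 1 alone. Of the Nodal and FGF genes, 7 of 13 were tested, with a median of -0.14 (0.01 with replicate 1 alone) and with *Smad4* (18.4 ± 1.93 CPM per kb, log2 fold change -0.14 ± 0.13) and *Smad2* (7.13 ± 0.414 CPM per kb, 0.02 ± 0.12) highest. All 12 KIT signalling genes were tested, 9 above 0, with a median of 0.16 that was -0.02 with replicate 1 alone. Their highest members were *Pik3ca* (13.5 ± 0.970 CPM per kb, log2 fold change 0.00 ± 0.11) and *Grb2* (11.1 ± 1.43 CPM per kb, 0.02 ± 0.18).

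Lists of cofactors of the 10 proteins came last. All 12 CCR4-NOT and PUM genes, which act with NANOS and DND1 on RNA decay, were tested, 6 above and 6 below 0 with a median of -0.03, also with replicate 1 alone (-0.03). *Cnot2* (63.1 ± 1.23 CPM per kb) and *Cnot10* (27.6 ± 1.02 CPM per kb) were highest, with log2 fold changes of 0.10 ± 0.10 and -0.10 ± 0.09 (SE). The 11 NuRD genes, partners of SALL4, had a median of 0.06 (-0.07 with replicate 1 alone), and *Hdac2* (110.6 ± 0.694 CPM per kb) and *Chd4* (87.6 ± 3.96 CPM per kb) had log2 fold changes of 0.06 ± 0.10 and 0.01 ± 0.08 (SE). The 11 LIN28 and let-7 pathway genes had a median of -0.06 (0.02 with replicate 1 alone), with *Drosha* (34.9 ± 3.04 CPM per kb) at 0.08 ± 0.10 and *Tut4*, the uridyltransferase that LIN28A recruits to let-7 precursors, (18.7 ± 1.28 CPM per kb) at -0.19 ± 0.12 (SE). The 10 other partners of DAZL, PRDM1 and DPPA3 had a median of 0.00 (-0.03 with replicate 1 alone). *Pabpc1*, the poly(A)-binding protein through which DAZL stimulates translation, had 275.9 ± 6.64 CPM per kb and a log2 fold change of 0.08 ± 0.10, and *Dnmt1* 37.7 ± 3.54 CPM per kb and 0.12 ± 0.11 (SE).

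Small RNAs of the length of piRNAs, 25 to 30 nt, were then searched for exact matches to the transcripts of the 10 genes, among the reads that the study classed as derived from genes. *Nanos2* had the most antisense reads of the 10 in every library. In the controls it had 101, 376 and 67 reads in the sense direction and 144, 448 and 112 antisense, and in the *Tex15*-/- testes 98, 80 and 94 sense and 81, 71 and 93 antisense. All of these reads match the genome at 1 place. In rpm (relative to all reads of 25 to 30 nt in the library, without TMM factors), sense reads amounted to 21.0, 12.3 and 9.08 in the controls and 16.3, 28.9 and 13.9 in the *Tex15*-/- testes, and antisense reads to 29.9, 14.7 and 15.2 and to 13.5, 25.7 and 13.8. The groups overlapped in both directions, with means of 14.1 ± 6.15 and 19.7 ± 8.05 for sense reads and 19.9 ± 8.65 and 17.6 ± 6.95 for antisense reads (SD, n = 3).

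Among 21951 protein-coding genes, *Nanos2* ranked 4th by antisense density in controls (12.8 rpm per kb, where 1.11 is the 99th percentile) and 45th by sense density (9.04, where 3.56 is the 99th percentile). The other 9 had at most 0.260 antisense rpm per kb (*Sall4*, rank 1292), where the median of the genes with any antisense read in controls was 0.0399, and *Dnd1* had 0 antisense reads in all 6 libraries. In the sense direction *Nanos3* ranked 681 and *Sall4* 705. *Sall4*, whose transcript is longer, had 55, 188 and 52 sense reads in the controls and 53, 87 and 59 in the *Tex15*-/- testes, more than *Nanos2* in *Tex15*-/- replicate 2. *Dppa3* had at most 2 sense reads in a library, although its messenger RNA was the second highest of the 10 in sorted control gonocytes, per kb of merged exon. The 2 kinds of library come from different material, sorted gonocytes and whole testes, so the contrast between a low *Nanos2* count and many *Nanos2* small RNAs was not tested within 1 sample.

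The most frequent sequences among these reads are shown because they place the short RNAs in the gene and show bases 1 and 10, by which piRNAs are recognised. PIWI proteins favour a U as the first base, and the partner cut from the other strand carries an A as its base 10. Each sequence is given 5′ to 3′ as in the read tables, with T for U, and the capitals mark bases 1 and 10. Every sequence listed begins with a U, but only the first and second *Nanos2* sense sequences have an A at base 10.
*Nanos2* sense, 26 nt, chr7:18987968-18987993: TaccgacgcAgtgggcgaaactcagc
*Nanos2* sense, 27 nt, chr7:18988610-18988636: TgtaacttcAgactgcctcgggtgagc
*Nanos2* sense, 26 nt, chr7:18988393-18988418: TcctgatcgTcactgccaagaagtgg
*Nanos2* antisense, 27 nt, chr7:18987618-18987644: TaaagtagtCtctccacatgtcaaagg
*Nanos2* antisense, 27 nt, chr7:18987661-18987687: TgcttccggCtctgaattatatccatc
*Nanos2* antisense, 25 nt, chr7:18987801-18987825: TagacgtgaCgagactccccattgt
*Sall4* sense, 25 nt, chr2:168756370-168756394: TgtgactctGcaggcgctccgcggc

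The first *Nanos2* sense sequence, in the coding part, was read 208 times over the 6 libraries, with 24, 105 and 12 reads in the controls and 25, 20 and 22 in the *Tex15*-/- testes. The other two sense sequences, both in the 3′ UTR, were read 78 and 64 times, and all 3 occurred in every library. The antisense sequences, all in the coding part, were read 87, 33 and 19 times. The *Sall4* sequence was read 77 times and occurred in every library. Sense reads fell mainly in the 3′ UTR (60% of 816 reads) and the coding sequence (39.7%), and antisense reads mainly in the coding sequence (63.8% of 949 reads). The antisense reads had 295 distinct sequences and the sense reads 160. Of the antisense reads 72.9% lay inside the span of *Gm45058*, which is annotated in that direction, and the rest outside it.

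**Figure D4:**
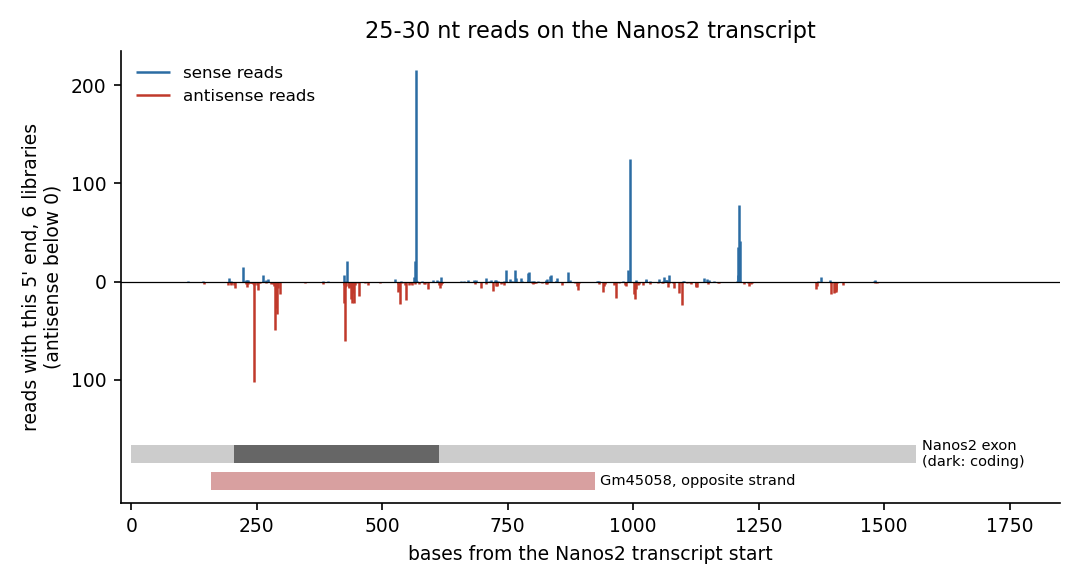
Number of 25 to 30 nt reads, summed over 6 testis libraries, that start at each base of the *Nanos2* transcript, with sense reads above 0 and antisense reads below 0, and with the exon, its coding part and the antisense gene *Gm45058* drawn to scale. Sense reads have their tallest peaks at 3 places, antisense reads have a tallest peak of 102 reads near the start of the coding part, and 72.9% of antisense reads lie within *Gm45058*.

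Over the 6 libraries, a first U was carried by 83.6% to 97.9% of *Nanos2* sense reads and 73.2% to 81.7% of antisense reads. Reads of the gene class as a whole had 70.8% to 71.0% in the controls and 63.6% to 66.7% in the *Tex15*-/- testes. An A at base 10 was found in 43.6% to 54.3% of the sense reads and in 21.1% to 32.3% of the antisense reads. The whole class had 21.0% to 21.9% in the controls and 17.9% to 19.6% in the *Tex15*-/- testes. The sense share at base 10 was thus above the class in every library, but it rests on few sequences, since 208 of the 816 sense reads are 1 sequence with an A at that place. *Sall4* sense reads that match the genome once had a first U in 83.1% to 100% and an A at base 10 in 5.08% to 19.6%.

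The position of sense against antisense reads was counted as the overlap between the 5′ ends of reads of opposite strands, since piRNAs made by reciprocal cutting, the ping-pong cycle, overlap by 10 nt. Pairs were counted within each library and summed. An overlap of 10 nt had 60 read pairs, the most of the overlaps from 1 to 30 nt, with 41 for the next and a median of 19 for the others. The deep control replicate 2 (30488444 reads of 25 to 30 nt, against 2766977 to 7377268 in the others) gave 36 of them. Without it, 10 nt had 24 pairs, with 21 for the next and a median of 8. In single libraries 10 nt was the overlap with the most pairs in 3 of 6 (control replicates 2 and 3 and *Tex15*-/- replicate 3), and the counts at 10 nt were 6, 36 and 6 in the controls and 3, 2 and 7 in the *Tex15*-/- testes, too few to compare the genotypes.
*Nanos2* sense, 26 nt, chr7:18988393-18988418: TCCTGATCGTcactgccaagaagtgg
*Nanos2* antisense, 29 nt, chr7:18988374-18988402: ACGATCAGGAtcagtctctggcactgtcc
Counted by sequence, these 2 gave 8 pairs, as many as any 2 sequences did, and the capitals mark the 10 bases that pair. The same antisense reads also paired with sense reads of other lengths, so these 8 are not a share of the 60. By 5′ end, whatever the length of the reads, the site shown held 13 pairs and a site in the coding part 17. The first and second *Nanos2* sense sequences listed further above, both with an A at base 10, had no antisense read at an overlap of 10 nt. The sense sequence was read 64 times, in 6 of 6 libraries, and the antisense one 8 times, in 4.

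**Figure D5:**
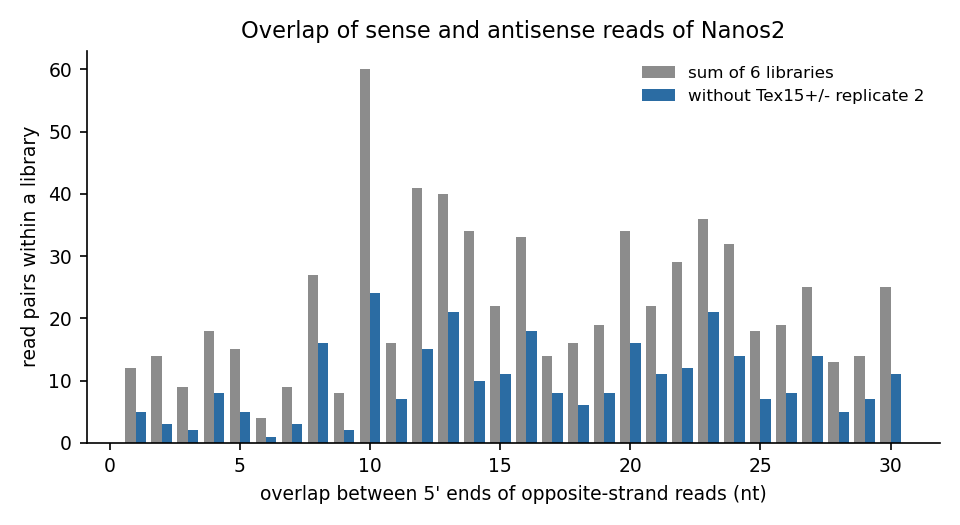
Number of pairs of sense and antisense *Nanos2* reads for each overlap of their 5′ ends from 1 to 30 nt, counted within each of the 6 testis libraries and summed (grey) and without the deepest, *Tex15*+/- replicate 2 (blue). The bar at 10 nt is the tallest in both, with 60 and 24 pairs, but without the deepest library the next, 21 pairs, are close.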

How the data were processed

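The authors aligned gonocyte reads to GRCm38 with HISAT2, counted them per Ensembl gene with htseq-count (HTSeq 0.11.1) and deposited raw counts. For small RNA the authors trimmed adaptors with cutadapt 1.8.1, annotated reads with Bowtie 1.2.1.1 and deposited the count of each sequence with its class. Consensus repeat counts and the P20 testes were not used here.

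Gene counts were tested with edgeR 4.0.16 under R 4.3.3 (TMM, filterByExpr with a minimum count of 10 and total of 15, quasi-likelihood test, Benjamini-Hochberg adjustment, calls at an adjusted p under 0.01). Standard errors were derived from the statistic of that edgeR test, and the 95% confidence intervals from those standard errors. The intervals are therefore no evidence apart from its unadjusted p-values. CPM were TMM-scaled and divided by the merged exon length of GENCODE vM21. Exact permutation tests were two-sided (scipy 1.17.1). As the class of gene reads names no gene, 25 to 30 nt reads were matched exactly to transcripts and to the genome (GRCm38.p6). Nothing states that libraries of 1 group came from separate animals, so p-values measure the spread between libraries. The scripts were tested on simulated counts.

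The members and lists were chosen with earlier results of these data known. The genes named are the 10 members, *Tex15*, *Actb*, the 2 highest per kb of each list with any at an adjusted p under 0.05, and the highest of each marker list; any other gene was picked once its values had been seen. Alternatives were DESeq2 1.42.0, other scalings, filters and thresholds, a replicate block, and leaving out each library.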

Additional observations from a re-analysis of the deposited data

How the results depend on the processing

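None of the 9 genes tested was called under any alternative that gave it an adjusted p (*Nanos3* had none with DESeq2 or with at least 10 counts in every library), and 128 of their 134 alternative values kept their direction. The 6 that turned were small: *Pou5f1* (main value -0.05) at 0.015 without control replicate 3 and 0.049 without *Tex15*-/- replicate 2, *Sall4* (-0.06) at 0.079 without *Tex15*-/- replicate 2 and 0.086 with replicates 2 and 3 left out together, *Kit* (0.16) at -0.061 with those 2 left out, and *Prdm1* (0.06) at -0.061 without control replicate 1. With 1 library left out, *Pou5f1* ranged from -0.12 to 0.049, *Sall4* from -0.12 to 0.079, *Prdm1* from -0.061 to 0.19, *Kit* from 0.07 to 0.28 and *Dnd1* from -0.14 to -0.04. Over all alternatives, *Dazl* ranged from -0.33 to -0.20, *Dppa3* from -0.87 to -0.25 (lowest adjusted p 0.036, edgeR without a filter), *Nanos3* from -0.96 to -0.71 and *Lin28a* from -0.47 to -0.15. Over all genes, calls rose from 0 to 488 without a filter, 14 with DESeq2, 2 with the newer edgeR estimate (*Tex15* and *Gm10800*), 1 with at least 10 counts in every library (*Tex15*), 3 at an adjusted p under 0.05 (*Tex15*, *Rspry1* and *Gm10800*), 18 with *Tex15*-/- replicates 2 and 3 left out together (1 knockout library, assumed to vary like the controls), and 0 to 388 with 1 library left out, the highest without *Tex15*-/- replicate 1, 5 without replicate 2 and 1 (*Alb*) without control replicate 1. List genes called rose from 0 to 3 without a filter (*Kitl*, *Mta1* and *Pik3r1*) and from 0 to 2 (*Kitl* and *Pik3r1*) with 1 library left out, again without *Tex15*-/- replicate 1. The cause was not tested. With the replicate block 0 genes, 0 members and 0 list genes were called. Same-numbered libraries did not deviate together (correlations -0.14, -0.04 and -0.01), so no pairing by number was seen. With 3 libraries per group that check cannot exclude a shared litter or batch. Leaving out replicates 2 and 3 together, scaling to germ cell markers and lengths free of overlap were chosen after seeing the data. Of the 45 pairs in the order of control levels, 41 to 45 kept it. Depth limits *Nanos2* and *Nanos3*, with at most 23 reads per library.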
